A study of Mus musculus with 18 samples.

Results

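The vehicle-treated neural stem cell (NSC) libraries made from 100 pg of RNA were compared with those made from 1 ng of the same RNA, to ask which expressed genes and gene classes keep their level when the input is reduced and which do not. The members were chosen by label and header alone: the vehicle columns of the unfiltered 100 pg and 1 ng tables, paired by the culture code in the column name (F5, F8 and M9), which gave 6 of the 18 libraries of the series, 3 per input. All groups were NSCs from the dentate gyrus of C57Bl6J mice aged 6 to 9 weeks, cultured at passages 6 to 15 with EGF and FGF2 at 20 ng/ml each. The groups used were vehicle at 100 pg and vehicle at 1 ng, and for reference H2O2 (500 µM, an oxidant) at 100 pg and at 1 ng and vehicle at 10 pg. The vehicle was water by the labels and PBS by the methods, and both treatments lasted 24 h. By the methods, the cultures came from 2 lines, 1 of pooled male and 1 of pooled female mice. The paper counts 1 male and 2 female biological replicates per treatment, so that 2 of the 3 cultures share a line. Also by the methods, the 100 pg and 1 ng libraries of a culture are dilutions of 1 RNA preparation. Full-length cDNA was preamplified with a SMART-Seq HT kit, and Nextera XT libraries of it were sequenced from both ends.

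NSCs of the dentate gyrus self-renew and give rise to granule neurons and astrocytes, and in EGF and FGF2 they divide and hold transcription factors such as Sox2, Hes1 and Olig2 together with the intermediate filament proteins nestin and vimentin. In template-switching protocols of the kind used here, a reverse transcriptase copies polyadenylated RNA from an oligo(dT) primer and the full-length cDNA is then amplified by PCR before it is cut into library fragments. The length of a template and its content of guanine and cytosine (G and C) are known to bear on both copying and PCR. Neither step was measured here, and their part in the results was not tested.

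In the 10 largest rises at 100 pg the densest stretch of the transcript held 83% to 90% G and C, so the GC-richest 100 bases of the annotated transcript (GENCODE M21, build GRCm38) are printed for 3 genes that rose, for 1 that has such a stretch and did not change its level beyond the test, and for 1 without it. All 5 stretches lie in the coding sequence, and capitals mark CG dinucleotides.
Olig2 (chr16:91227004-91227103, plus strand, 87% G and C): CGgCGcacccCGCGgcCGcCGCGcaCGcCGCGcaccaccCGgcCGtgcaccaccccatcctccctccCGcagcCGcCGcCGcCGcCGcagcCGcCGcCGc
Mtch1 (chr17:29347657-29347756, minus strand, 85% G and C): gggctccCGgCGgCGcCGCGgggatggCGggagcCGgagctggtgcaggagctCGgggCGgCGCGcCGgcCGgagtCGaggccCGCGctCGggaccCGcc
Igfbp3 (chr11:7213685-7213784, minus strand, 84% G and C): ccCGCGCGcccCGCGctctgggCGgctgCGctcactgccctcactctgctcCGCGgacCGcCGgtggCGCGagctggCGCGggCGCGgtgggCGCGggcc
Eid1 (chr2:125673282-125673381, plus strand, 86% G and C): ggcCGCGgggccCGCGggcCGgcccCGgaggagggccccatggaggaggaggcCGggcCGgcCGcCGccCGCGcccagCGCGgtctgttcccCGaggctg
Gapdh (chr6:125162567-125162666, minus strand, 64% G and C): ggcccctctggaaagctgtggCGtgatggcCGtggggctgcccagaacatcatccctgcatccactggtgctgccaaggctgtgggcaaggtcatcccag
The Olig2 stretch held 21 CG dinucleotides and the Gapdh stretch 2. Olig2, Mtch1 and Igfbp3 were higher at 100 pg, with log2 fold changes of 5.03, 4.16 and 3.06, whereas Eid1 had a log2 fold change of 0.05 and Gapdh of 0.13.

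The libraries held 11849380 to 12721130 reads counted in genes at 100 pg and 10032628 to 11946931 at 1 ng, and the 10 highest genes took between 3.99% and 4.29% of them. Levels are given in CPM, the reads of a gene after scaling the reads of its library to 1000000, so a level is a share of the library. In bulk RNA, fewer cells of a type and less RNA per cell cannot be told apart. By the methods, though, both inputs of a culture are dilutions of RNA from the same cells. Of 50600 genes in the unfiltered tables, 14745 had a mean of at least 1 CPM over the 6 libraries and were tested. Of the markers of the labelled cell type, 11 of 11 were read, and together they came to 7475, 7875 and 7484 CPM at 100 pg against 7761, 8095 and 7762 CPM at 1 ng (cultures F5, F8 and M9 in this order, here and in all triplets). The summed markers of the oligodendrocyte lineage came to 2678, 2677 and 3035 CPM at 100 pg, against 2669, 2585 and 2771 CPM at 1 ng. Of these, Olig1 alone gave 2677, 2675 and 3018 CPM at 100 pg. Olig2, which rose at 100 pg, is not among these markers. The oligodendrocyte gene list, which includes it, summed to 4134, 4152 and 4124 CPM at 100 pg, against 3029, 2897 and 3127 CPM at 1 ng. Astrocyte markers summed to between 196 and 266 CPM at 100 pg and between 192 and 268 CPM at 1 ng. The summed markers of neurons stayed between 14.1 and 19.3 CPM at 100 pg and between 13.9 and 16.9 CPM at 1 ng, and those of fibroblasts did not pass 0.760 CPM at 100 pg or 1.10 CPM at 1 ng. For microglia and blood (3 of 7 markers at 0 in every library) the sums ranged from 12.2 to 16.9 CPM at 100 pg and from 11.3 to 12.6 CPM at 1 ng.

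Most genes kept their level at 100 pg. Of the tested genes, 13047 (88.5%) lay within 1.5-fold of their 1 ng level, and the median log2 fold change was -0.03 (quartiles -0.24 and 0.13), and within each culture it lay between -0.02 and -0.01. In all, 637 genes (4.32% of those tested) differed between the inputs, 379 higher at 100 pg (2.57%) and 258 lower (1.75%), by limma with the culture as a block and an adjusted p under 0.05. The rises were large and the falls small. Of the genes higher at 100 pg, 308 rose more than 2-fold (2.09% of tested genes), 126 more than 4-fold and 32 more than 8-fold, with a median log2 fold change of 1.65 over the 379. Of the genes lower at 100 pg, 36 fell more than 2-fold (0.244%) and 1 more than 4-fold, with a median of -0.58 over the 258. Fold changes are on the log2(CPM + 1) scale, which understates those of low genes, and each of the 637 genes moved in its direction in all 3 cultures. The number of falls rested on single cultures, being 94 without F5, 426 without F8 and 90 without M9, and that of the rises was 242 without F5, 409 without F8 and 299 without M9. Other models moved both counts, the falls from 14 (limma without a mean trend) to 723 (DESeq2) and the rises from 159 to 653.

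Olig2, a basic helix-loop-helix factor of neural progenitors and the oligodendrocyte lineage, showed the largest rise of any gene chosen by the naming rule. It had 1192, 1240 and 772 CPM at 100 pg, against 30.4, 31.4 and 31.1 CPM at 1 ng, a log2 fold change of 5.03 ± 0.13 (SE, 3 cultures; limma adjusted p = 3.91e-06) and a 34.5-fold ratio of means. The inputs did not overlap, M9 being the lowest of the 100 pg libraries. Its neighbour in the genome and partner in function, Olig1, had 2677, 2675 and 3018 CPM at 100 pg, against 2658, 2579 and 2759 CPM at 1 ng, with a log2 fold change of 0.06 ± 0.02 (adjusted p = 0.237) and inputs that overlapped.

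Alyref, an adaptor that hands spliced mRNA to the export machinery, had 231, 195 and 171 CPM at 100 pg, against 6.98, 7.68 and 7.53 CPM at 1 ng (log2 fold change 4.56 ± 0.15, adjusted p = 1.51e-05). Mtch1, a protein of the outer mitochondrial membrane, had 222, 203 and 142 CPM at 100 pg, against 10.5, 9.02 and 8.79 CPM at 1 ng (4.16 ± 0.15, adjusted p = 1.77e-05). In both genes the lowest 100 pg library exceeded the highest 1 ng library more than 10-fold, and M9 was again the lowest at 100 pg. The rule named 7 further rises, 2510039O18Rik, Ankrd13a, Lrrc47, Dnaaf5, Tmem158, Btbd2 and Tmed7, whose log2 fold changes lay between 3.62 and 3.96, none of them with overlapping inputs.

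A few genes of high mean level also rose, and Igfbp3, Rac1, Prkaca, Ppp2ca and Gnas were chosen after their values were seen. Of 487 genes with a mean of 300 to 1000 CPM, 7 rose more than 2-fold (1.44%), and of 70 genes above 1000 CPM, 1 (1.43%). Over all tested genes the share was 2.09%. The mean is over both inputs, so a high 100 pg value raises it. Igfbp3, a secreted binding protein of insulin-like growth factors, had 2476, 2425 and 1508 CPM at 100 pg, against 264, 242 and 242 CPM at 1 ng (log2 fold change 3.06 ± 0.12, adjusted p = 1.77e-05). Rac1, a small GTPase that steers the actin cytoskeleton, had 708, 690 and 641 CPM at 100 pg, against 82.2, 65.6 and 90.2 CPM at 1 ng (3.09 ± 0.10). Lamp1, a glycoprotein of the lysosomal membrane, had 846, 803 and 662 CPM at 100 pg, against 117, 90.3 and 117 CPM at 1 ng (2.82 ± 0.11). All 3 were separated between inputs in each culture. Among enzymes of signalling, Prkaca, the catalytic subunit of protein kinase A, had a log2 fold change of 3.57, Ppp2ca, the catalytic subunit of protein phosphatase 2A, of 3.19, and Gnas, the stimulatory G protein subunit, of 2.42.

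**Figure D1:**
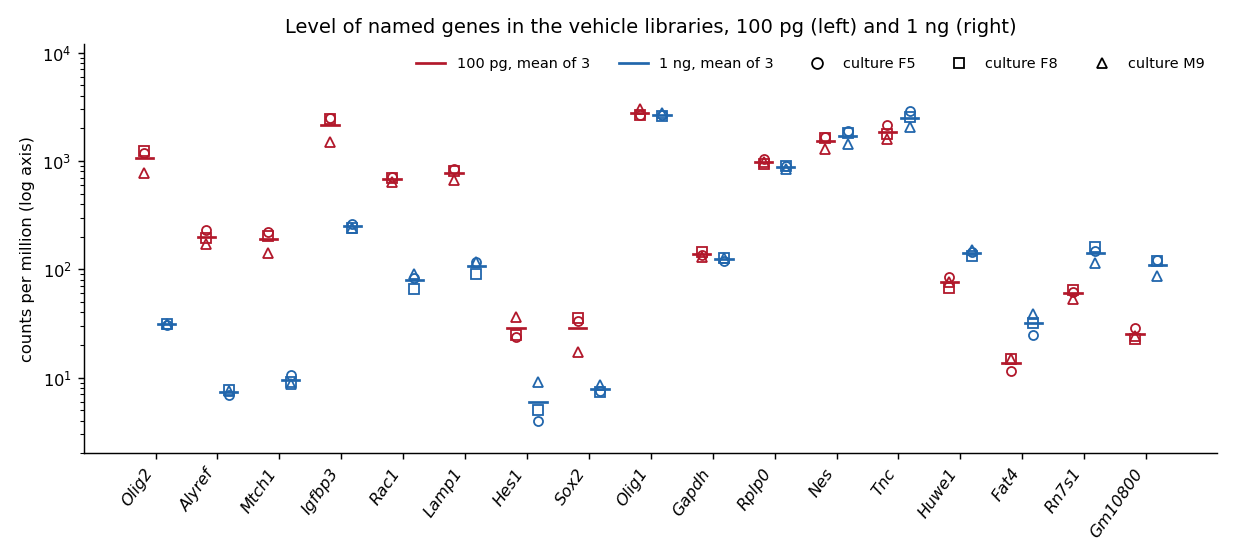
Level of 17 named genes in the vehicle libraries in CPM (log axis), 100 pg in red on the left and 1 ng in blue on the right of each gene, with a symbol for each culture and a bar for the mean of 3. Olig2 stands at 1068 CPM on average at 100 pg and at 30.96 CPM at 1 ng, Olig1 and Gapdh overlap or nearly touch between inputs, and Gm10800 is lower at 100 pg.

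The 308 genes that rose more than 2-fold held 3.12%, 2.94% and 2.41% of the reads at 100 pg, against 0.666%, 0.601% and 0.702% at 1 ng. Culture M9 showed the smallest median log2 ratio over these genes, 1.56, against 2.02 for F5 and 2.05 for F8. Of these genes, 249 had a mean of at least 10 CPM over the 6 libraries, a mean that their high 100 pg values raise. The authors' CLEAR filter, which judges from where reads lie along a transcript whether a gene is reliably measured, kept 278 at both inputs. The fit limited to genes kept at both inputs held 11330 genes, beside 14745 in the main fit. By the paper, the filter removes transcripts of low count. The 308 genes were chosen for high 100 pg values, so the count of 278 is a description. At 10 pg the 308 genes held 0.434%, 0.339% and 0.428% of the reads. They were chosen for high values in these 100 pg libraries, so the comparison with 10 pg is a description. Every one of the 308 was higher at 100 pg than at 10 pg, and 2 of them exceeded their 1 ng level more than 2-fold at 10 pg. Their median log2 fold change against 1 ng was -1.22 at 10 pg and 1.87 at 100 pg, beside -0.33 and -0.03 over all tested genes, in comparisons that share the 1 ng libraries. For Igfbp3, for example, the levels were 189, 189 and 100 CPM at 10 pg, 2476, 2425 and 1508 CPM at 100 pg and 264, 242 and 242 CPM at 1 ng.

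H2O2-treated cells, whose libraries come from other RNA preparations, gave a second reading of the same dilution step. There 689 of 14900 tested genes differed (4.62%), 418 of them higher at 100 pg (2.81%, of which 320 more than 2-fold, 2.15%) and 271 lower (1.82%, of which 39 more than 2-fold, 0.262%). Of the 379 genes higher in vehicle, 327 were also called higher under H2O2, which is 86.3% of the vehicle genes and 78.2% of the H2O2 genes. None was called lower, and 377 of the 378 tested had a positive sign. Of the 258 genes lower in vehicle, 119 were also called lower under H2O2 (46.1% of the vehicle genes and 43.9% of the H2O2 genes), and 251 of 258 had a negative sign. Olig2 had 1215, 1209 and 1026 CPM at 100 pg, against 29.6, 33.6 and 31.1 CPM at 1 ng, in H2O2-treated cells, with a log2 fold change of 5.15. The difference between the treatments in the change with input was tested on 14863 genes. It was called for 0 by limma (smallest adjusted p = 0.869, 723 genes or 4.86% at an unadjusted p under 0.05) and for 0 by edgeR (smallest adjusted p = 0.999, 648 genes or 4.36%), which does not show that the change was equal.

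The rises followed the densest stretch of G and C in the transcript. This class was set up after the rises had been seen and is given as a description without a test. For 12071 tested protein-coding genes the GC-richest 100 bases were taken from the transcript with the longest coding sequence. Where that stretch held under 80% G and C, 38 of 9005 genes (0.422%) rose more than 2-fold. The share was 9.59% (56 of 584) from 84% to 86%, 25.1% (107 of 426) from 86% to 88%, 21.8% (56 of 257) from 88% to 90% and 11.2% (19 of 170) at 90% or more. Put the other way, 238 of the 296 risen genes with a known stretch (80.4%) were at 84% or more, beside 11.9% of all 12071. The shares under H2O2 were 0.430%, 10.1%, 25.1%, 23.7% and 12.1% in these 5 classes. With stretches of 200 bases the highest share was found at 82% to 84%, where 100 of 303 genes (33.0%) rose, and 1 of 30 rose at 88% to 90%.

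**Figure D2:**
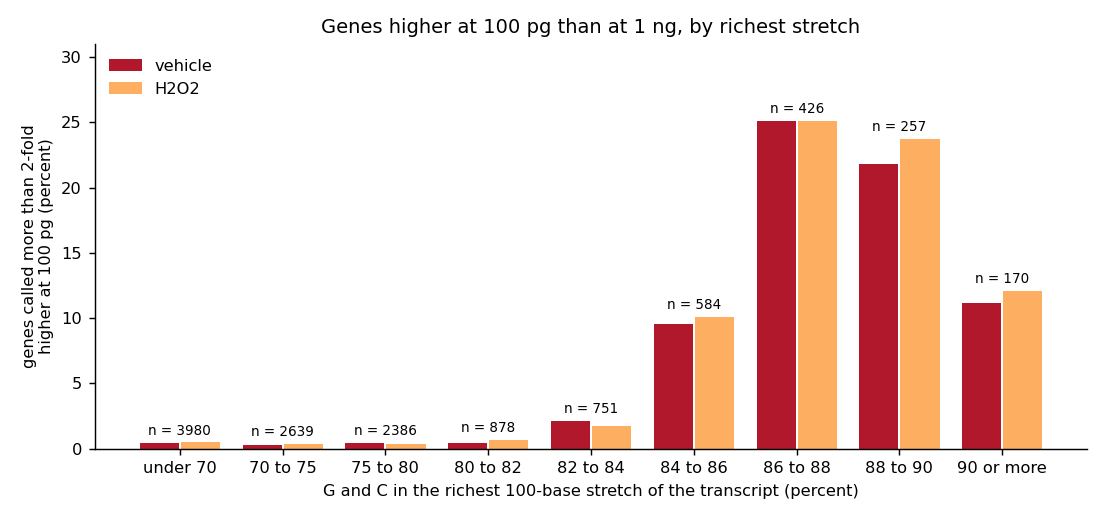
Percent of genes called more than 2-fold higher at 100 pg (vertical axis) by the G and C content of the richest 100 bases of the transcript (horizontal axis), vehicle in red and H2O2 in orange, with the number of genes tested in vehicle above each pair. The share is under 1% below 82%, is highest at 86% to 90% and lower again at 90% or more.

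Most genes with a dense stretch were not called. Of the 853 genes at 86% or more, 182 (21.3%) rose more than 2-fold, 208 rose in all and 5 fell, with a median of 0.28. Those 5 were Alg10b, Rere, Ep300, Ahcyl2 and Fasn, with log2 fold changes between -0.87 and -0.41. Eid1, an inhibitor of the acetyltransferase p300 (Ep300), had 133, 112 and 137 CPM at 100 pg, against 117, 117 and 133 CPM at 1 ng, with overlapping inputs. By place of the stretch, the share that rose more than 2-fold was 19.5% of 574 genes with the stretch in the 5′ UTR, 24.9% of 201 with it in the coding sequence and 26.0% of 77 with it across an edge between these. Within this class the share was 30.7% for transcripts of 2 to 4 kb and 9.28% for those over 8 kb. Over the whole transcript, a G and C fraction above 0.60 went with 6.34% of genes rising more than 2-fold and one below 0.40 with 0.930%. Some rises lay outside the class, such as that of Spry2, an inhibitor of receptor tyrosine kinase signalling, with a log2 fold change of 0.91 and a richest stretch of 68%.

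The NSC identity list contained the widest range of changes of the lists with at least 10 tested members. Of 25 tested members (2 of 27 were below the filter), 6 rose and 3 fell, beside 2.57% and 1.75% of all tested genes. The quartiles were -0.32 and 0.69. Besides Olig2, Sox21 rose with a log2 fold change of 2.69, Hes1 with 2.11, Sox1 with 1.97 and Sox2 with 1.69. Sox2, the factor that maintains neural progenitors, had 33.5, 35.7 and 17.1 CPM at 100 pg, against 7.48, 7.32 and 8.62 CPM at 1 ng (SE 0.28, adjusted p = 0.0148). Hes1, a repressor that carries the Notch signal, had 23.9, 24.8 and 36.6 CPM at 100 pg, against 3.99, 5.0 and 9.04 CPM at 1 ng (SE 0.21, adjusted p = 0.00123). The inputs did not overlap for either gene, and Sox2 was lowest in M9 at 100 pg whereas Hes1 was highest there.

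The 3 identity genes that fell were Notch1, the receptor upstream of Hes1, Fgfr1, a receptor of FGF2, and Nes, the filament protein nestin. Notch1 had 93.5, 131 and 165 CPM at 100 pg, against 167, 212 and 204 CPM at 1 ng (log2 fold change -0.61 ± 0.11, adjusted p = 0.0216). Nes had 1669, 1612 and 1294 CPM at 100 pg, against 1870, 1827 and 1445 CPM at 1 ng (-0.17 ± 0.02, adjusted p = 0.00524), and was lower at 100 pg in every culture although the groups overlapped. Vim, Sox9, Fabp7 and Slc1a3 had values between -0.13 and 0.09 and did not pass the test. Mki67, a marker of dividing cells with a transcript of 10.1 kb, had 143, 178 and 197 CPM at 100 pg, against 221, 252 and 263 CPM at 1 ng (-0.51 ± 0.07, adjusted p = 0.00664), while the other 38 members of the mitosis list were not called. Under H2O2 its value was 0.07 and it was not called, and the difference between the treatments did not pass the test either. Without culture F5 the calls of Sox2 (1.53), Sox1 (1.90), Notch1 (-0.50) and Nes (-0.17) were lost.

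Further lists held large rises beside members that were not called. Of all tested genes, 2.57% rose and 1.75% fell. In the antioxidant list, which holds targets of the oxidant sensor NRF2, 7 of 34 members rose and 0 fell. Gclc, the catalytic subunit of the enzyme that starts glutathione synthesis, had 131, 164 and 89.4 CPM at 100 pg, against 19.5, 21.5 and 19.7 CPM at 1 ng (log2 fold change 2.56 ± 0.17, adjusted p = 0.000191). Its partner subunit Gclm rose with 0.67 and the glutathione reductase Gsr with 0.86, while Ftl1, Fth1, Txn1 and Me1 rose with 0.12 to 0.36. The 7 rises of this list became 3 without F5, where Gclm (0.63), Ftl1 (0.13), Txn1 (0.20) and Me1 (0.32) lost their calls, 7 without F8 and 5 without M9, where Ftl1 (0.09) and Txn1 (0.16) did. Of 36 splicing regulators, 4 rose and 1 fell. Srsf2, an SR protein that binds exonic enhancers, had 326, 349 and 337 CPM at 100 pg, against 36.6, 36.4 and 54.7 CPM at 1 ng (2.98 ± 0.13), Srsf9 rose with 2.49, Hnrnpd with 2.45 and Pcbp1 with 1.15, and Hnrnpul1 fell with -0.79, a call lost without M9 (-0.73). Among neuronal genes, the progenitor factor Sox4 rose with 1.92 and the microtubule protein Map2 fell with -0.44, out of 19 tested. Kif7, a regulator of Hedgehog signalling in the cilium, was the one riser of 40 cilium genes, with 2.38, and Lamp1 that of 33 lysosome genes. Both counts (2.5% and 3.03%) are near the 2.57% of all tested genes that rose.

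The falls went with transcript length. The median log2 fold change was 0.07 for transcripts of 1 to 2 kb, -0.02 for 2 to 4 kb, -0.14 for 4 to 8 kb and -0.29 for the 787 genes over 8 kb. In the last class 93 genes fell (11.8%) and 17 rose (2.16%). Of 2308 genes of 1 to 2 kb, 2 fell (0.0867%) and 44 rose (1.91%). Over all tested genes 1.75% fell and 2.57% rose, so the shares that rose were near that of all genes. Over 8 kb, cultures F5, F8 and M9 had medians of -0.26, -0.25 and -0.31, and the median under H2O2 was -0.32. Restricted to genes whose richest stretch held under 80% G and C, the vehicle median was -0.31 over 8 kb. There 62 of 506 genes fell (12.3%) and 4 rose (0.791%). Length here is that of the longest annotated transcript, which need not be the one these cells made.

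**Figure D3:**
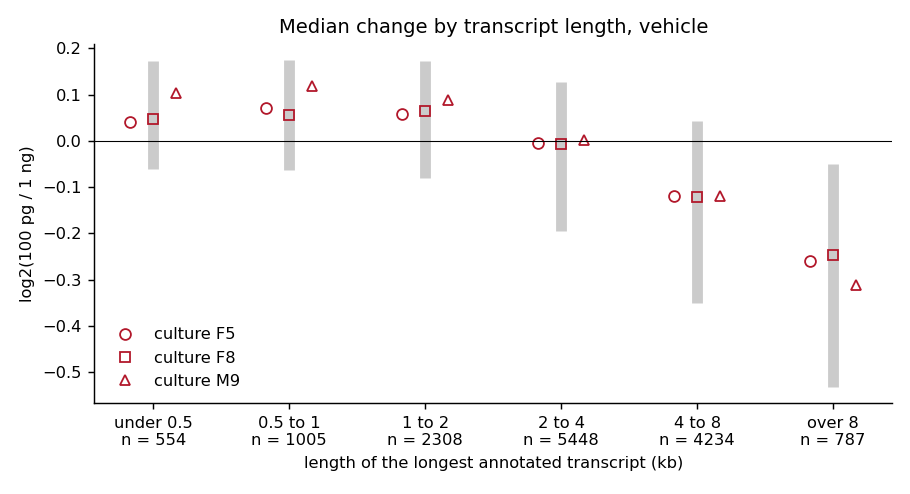
Median log2 ratio of 100 pg over 1 ng on log2(CPM + 1) (vertical axis) by length of the longest annotated transcript in kb (horizontal axis), a symbol for each vehicle culture and a grey bar from the first to the last quartile of the fitted values. The medians are above 0 up to 2 kb and fall to between -0.31 and -0.25 over 8 kb.

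Genes for giant proteins of the cytoskeleton and membrane were the list that fell most. Of 43 tested members (4 of 47 below the filter), 15 fell and 0 rose, beside 1.75% and 2.57% of all tested genes. The median was -0.49 and 39 had a negative sign. Their summed level was 6521, 6488 and 5565 CPM at 100 pg, against 9176, 9221 and 7602 CPM at 1 ng, with no overlap. Fat4, a giant cadherin of 16.1 kb, had 11.4, 14.9 and 14.9 CPM at 100 pg, against 24.7, 32.0 and 39.0 CPM at 1 ng (log2 fold change -1.14 ± 0.17, adjusted p = 0.0107). Tnc, the matrix protein tenascin C, had 2151, 1774 and 1580 CPM at 100 pg, against 2876, 2530 and 2035 CPM at 1 ng (-0.43 ± 0.03, adjusted p = 0.000238). Each culture was lower at 100 pg, but F5 at 100 pg exceeded M9 at 1 ng. Fat1 fell with -0.85, the non-muscle myosin Myh9 with -0.81, the dynein heavy chain Dync1h1 with -0.67 and the actin crosslinker Flna with -0.49. Macf1, the spectraplakin of 23.5 kb, had a value of -0.26 and was not called. The matrix proteoglycan Hspg2 fell with -0.94. The call of Fat4 was lost without M9 (-1.05) and that of Hspg2 without F8 (-0.67) or M9 (-0.98). The list held 10 falls without F5, 20 without F8 and 12 without M9.

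Giant regulators of chromatin and ubiquitin transfer showed the same sign. Of 50 members 12 fell and 2 rose, beside 1.75% and 2.57% of all tested genes, with a median of -0.39. The falls numbered 3 without F5, 14 without F8 and 4 without M9. Huwe1, a ubiquitin ligase of 14.6 kb, had 84.7, 67.6 and 76.0 CPM at 100 pg, against 144, 132 and 152 CPM at 1 ng (log2 fold change -0.90 ± 0.09, adjusted p = 0.00162), with no overlap. The DNA damage kinase Atm had -0.85, the acetyltransferase Ep300 -0.73 and the remodeller Chd4 -0.41. Atm and Ep300 lost their calls when any 1 culture was left out, with values from -0.97 to -0.75 for Atm and from -0.87 to -0.63 for Ep300, and Chd4 without F5 (-0.40) or M9 (-0.46). The corepressor Ncor1 was among those that rose (1.22), with a richest stretch of 88% G and C. In the matrix list 5 of 35 fell, among them Lama5 (-0.71) and Tnc, and 3 rose, Itgb5 (2.29), Timp2 (1.91) and Itga6 (0.89). In lipid synthesis 3 of 30 fell, Acaca (-0.66), Fasn (-0.41) and Scd2 (-0.18), and Acaca was not called without F5 (-0.54).

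The largest falls chosen by the naming rule were mostly of other kinds. Gm10800, a short predicted gene of 0.660 kb, had 28.5, 22.7 and 24.3 CPM at 100 pg, against 123, 120 and 85.96 CPM at 1 ng (log2 fold change -2.07 ± 0.14, adjusted p = 0.000278). Rn7s1, a copy of the 7SL RNA of the signal recognition particle, had 62.1, 65.0 and 53.2 CPM at 100 pg, against 148, 160 and 113 CPM at 1 ng (-1.20 ± 0.10, adjusted p = 0.000501). Rn7s2, AC157822.1, AC157822.2 and AC099934.2 were between -1.31 and -1.24 and none of them overlapped between inputs. Rn7s1 and Rn7s2 are near-identical copies, so how their reads were divided is uncertain, and the unnamed AC entries were not matched to a gene type. The other 4 were Fam126b, Stk35, N4bp2 and Prrc2a, with values between -1.24 and -1.16 and transcripts of 5.44 to 9.06 kb, and the first 3 of these were not called under H2O2. Fam126b lost its call when any 1 culture was left out (-1.37 without F5, -1.06 without F8 and -1.27 without M9), and Stk35 and N4bp2 when F5 (-1.34 and -1.35) or M9 (-1.33 and -1.04) was.

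Several gene classes differed by small amounts between the inputs. Of 82 tested cytosolic ribosomal protein genes (3 of 85 below the filter), 0 rose and 0 fell by limma, the values ran from -0.05 to 0.23 and 79 were positive, with a median of 0.13. At an unadjusted p under 0.05, 26 were higher at 100 pg and 0 lower, beside 17.2% of all tested genes in either direction. By other fits, 0 were called higher by edgeR, 15 by DESeq2 and 1 by limma without F8. Their summed level was 22982, 22970 and 23824 CPM at 100 pg, against 21232, 21427 and 21315 CPM at 1 ng, so that the sums were slightly higher at 100 pg in each culture. Rplp0 had 1036, 937 and 974 CPM at 100 pg, against 892, 895 and 842 CPM at 1 ng (log2 fold change 0.16 ± 0.04, adjusted p = 0.0637). Of 87 genes of the respiratory chain and ATP synthase, 0 were called by limma (7 at an unadjusted p under 0.05), 0 by edgeR and 3 by DESeq2, all lay within 1.5-fold by limma, 81 were positive and the median was 0.11. The ATP synthase subunit Atp5b (0.07) was called by limma without F8 (0.10). Their sums were 19535, 19876 and 19965 CPM at 100 pg, against 18387, 18939 and 18481 CPM at 1 ng. Many ribosomal protein genes and Gapdh have processed pseudogenes of near-identical sequence, so the division of reads between copies is uncertain.

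No member was called by limma among 78 mitochondrial ribosomal proteins (median 0.09), 38 proteasome subunits (0.08), 31 histones (0.10; 36 of 67 below the filter), 44 DNA replication genes (0.03), 37 aminoacyl-tRNA synthetases (-0.04), 24 quiescence genes (0.07), 14 snoRNA hosts (0.06) and 10 astrocyte markers (-0.14). At an unadjusted p under 0.05 these lists held, in the same order, 4, 6, 0, 8, 5, 3, 2 and 2 genes, and DESeq2 called 1, 3, 0, 2, 2, 1, 0 and 1, while edgeR called 0 in each. Of all 14745 tested genes, limma called 4.32%, and 17.2% had an unadjusted p under 0.05. DESeq2 called 653 of them higher and 723 lower, and edgeR 347 and 150. At the limma share the shorter lists would hold few calls or none, so their counts alone do not set them apart. Of 62 translation factors 1 rose, Eef1a1 with 0.08, and 2 fell, Eif4g1 with -0.32 and Eif4g2 with -0.28. The call of Eef1a1 was lost without any 1 culture (0.08 to 0.09) and that of Eif4g1 without F5 (-0.30) or M9 (-0.29). Of 20 glycolytic enzymes Eno1 was the one called, with 0.11, and was not called without M9 (0.10). Cdkn1a, the cell cycle inhibitor p21, had 736, 774 and 481 CPM at 100 pg, against 689, 715 and 472 CPM at 1 ng, and the order of the cultures was kept. Of 30 targets of p53, 0 rose and Eda2r fell with -0.45, a call lost without any 1 culture (-0.49 to -0.39).

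**Figure D4:**
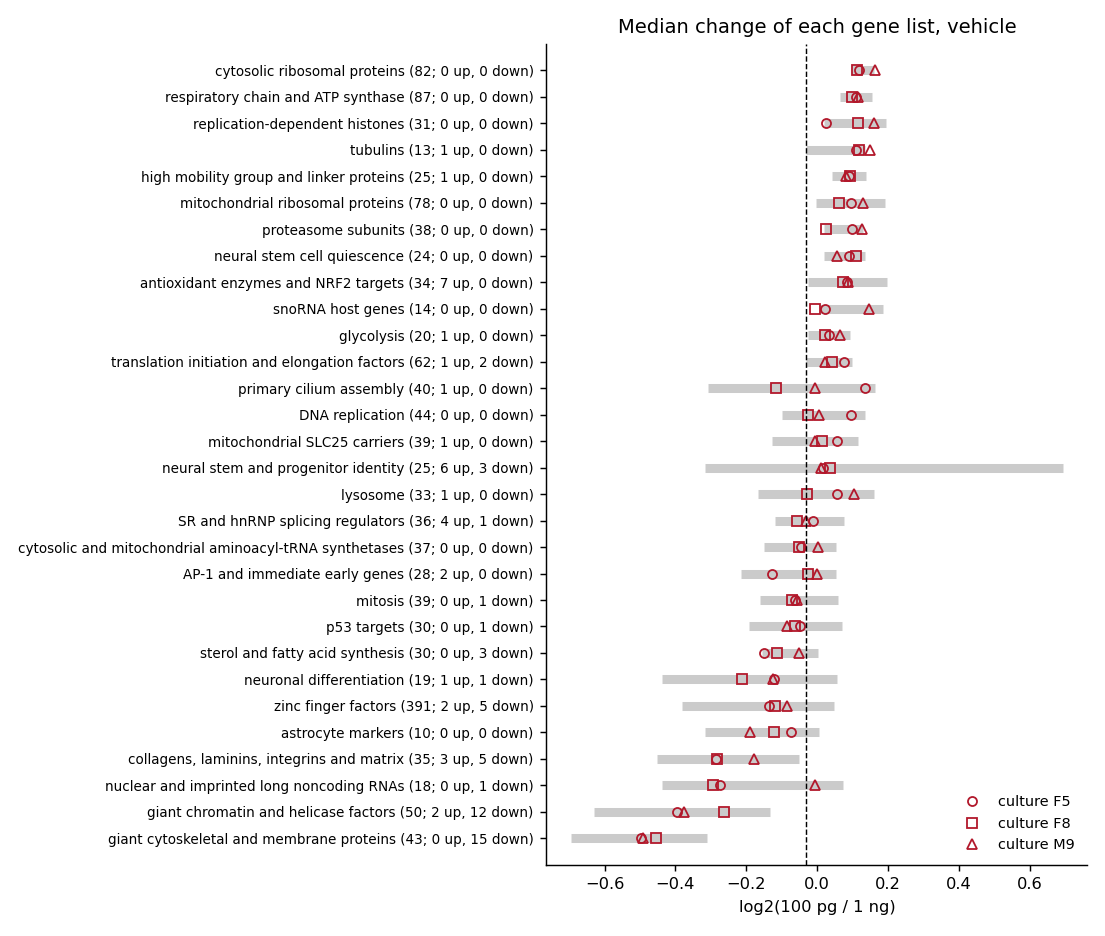
Median log2 ratio of 100 pg over 1 ng on log2(CPM + 1) in vehicle (horizontal axis) for each gene list with at least 10 tested members (vertical axis, with the number tested, called up and called down), a symbol for each culture, a grey bar from the first to the last quartile and a dashed line at the median of all genes, -0.03. Ribosomal and respiratory chain genes are at the top with medians of 0.13 and 0.11, and the giant cytoskeletal and membrane proteins at the bottom with -0.49.

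By annotated gene type, 366 of 12122 protein-coding genes rose and 244 fell (3.02% and 2.01%), beside 2.57% and 1.75% of all tested genes. Of 693 processed pseudogenes 0 were called by limma (14 at an unadjusted p under 0.05), 0 by edgeR and 2 by DESeq2, with a median of 0.09. Of 254 lincRNAs 0 rose and 2 fell, Gm26870 with -1.84 and Gm26917 with -0.36, and Gm26870 was not called without F5 (-1.71) or M9 (-1.92). Counts over the lincRNAs were 0 higher and 1 lower without F5, 2 and 6 without F8, and 0 and 1 without M9. Malat1, a nuclear RNA of splicing speckles, had 1667, 2527 and 1598 CPM at 100 pg, against 1585, 2332 and 1553 CPM at 1 ng (log2 fold change 0.08, adjusted p = 0.14), F8 being highest at both inputs. Of 586 antisense genes 9 rose and 0 fell by limma, and 3 rose without F5, 8 without F8 and 5 without M9. Counting did not use strand, so these reads cannot be told apart from those of the gene on the other strand, and likewise for Gm24157, a predicted miRNA gene (3.13) beside Ppp2ca.

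Detection depended on the minimum used. The number of genes at 1 CPM or more was 14810, 14812 and 14666 at 100 pg, against 14682, 14748 and 14726 at 1 ng (exact permutation test, 2-sided, p = 0.4, where 3 against 3 cannot go below 0.1). The number with at least 1 read was 19871, 19803 and 19557 at 100 pg, against 24243, 24535 and 24207 at 1 ng, 18.8% fewer at 100 pg (exact permutation p = 0.1) and also 18.7% fewer after all libraries had been thinned to the same number of reads. Genes with exactly 1 read numbered 1192, 1208 and 1130 at 100 pg, against 3680, 3575 and 3502 at 1 ng. The genes not read at 100 pg were those of low level. Of genes under 0.1 CPM at 1 ng, 69.98% of 8907 were at 0 in all 3 libraries of 100 pg, from 0.1 to 0.3 CPM 41.0%, from 0.3 to 1 CPM 11.3% and from 1 to 3 CPM 1.23% (27 of 2198). Above that, 0 of 12567 genes were lost in all 3. Among the 27, Arhgef19, a guanine nucleotide exchange factor, had 45, 27 and 24 reads at 1 ng, and Pdk4, a kinase that inhibits pyruvate dehydrogenase, 34, 26 and 18. These classes were set by the 1 ng level, so their genes had a read at 1 ng by selection. Under 0.1 CPM, 1.56% of genes were read in all 3 libraries of 100 pg, against 1.38% in all 3 of 1 ng. From 0.1 to 0.3 CPM the shares were 10.8% and 37.4%, and from 0.3 to 1 CPM 40.8% and 89.5%.

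The spread between libraries also fell with level. From 1 to 3 CPM, 19.1% of genes differed more than 2-fold between the 100 pg and 1 ng libraries of 1 culture, from 10 to 30 CPM 8.37%, from 100 to 300 CPM 1.83% and above 1000 CPM 1.43%. Between 2 cultures both at 100 pg the shares were 26.5%, 12.0%, 0.617% and 0.476%, and between 2 cultures both at 1 ng 6.12%, 2.04%, 0.441% and 0.476%. Over all genes the interquartile range of the log2 ratio was 0.603 between cultures at 100 pg, against 0.357 between cultures at 1 ng, and 0.508 between the inputs within a culture.

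**Figure D5:**
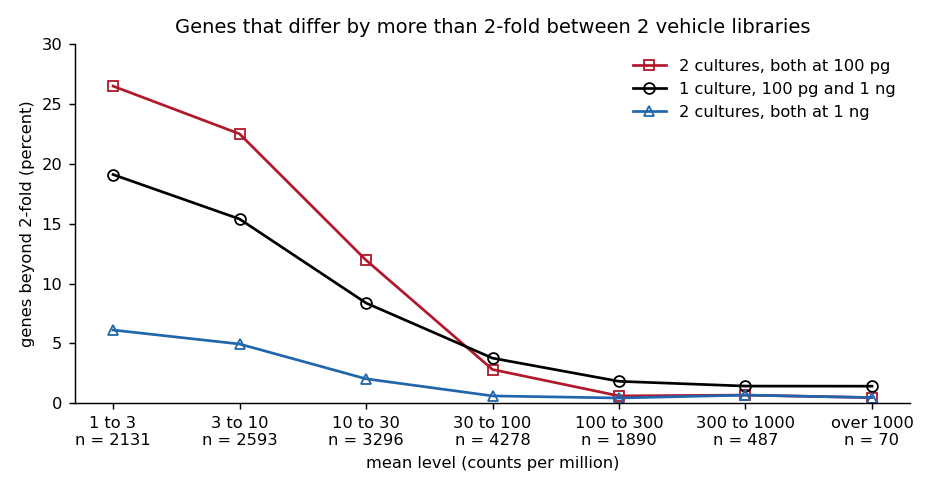
Percent of genes that differ by more than 2-fold between 2 libraries (vertical axis) by mean level in CPM (horizontal axis), averaged over the 3 pairs of cultures at 100 pg, the 3 within-culture pairs of inputs and the 3 pairs of cultures at 1 ng. From 1 to 3 CPM the shares are 26.5%, 19.1% and 6.12%, and above 100 CPM all are under 2%.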

How the data were processed

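RNA of cultured NSCs was measured at 10 pg, 100 pg and 1 ng, in 18 libraries. The authors trimmed the reads, removed ribosomal, mitochondrial and PhiX reads, aligned the rest with HISAT2 2.0.6 to GRCm38 and counted them per gene without strand with featureCounts of Subread on GENCODE M14. CASAVA 1.8.2 and the human build GRCh38 are named in the submitters' processing notes, although the symbols are mouse. The deposited unit is a normalized signal: the authors scaled the read count of each gene by a size factor of its library, separately for each input. Every value was a whole multiple of 1 read (within 1e-06), so reads were recovered, and each library was rescaled to CPM, which cancels the separate normalization of the 2 tables. Columns were assigned to groups by their headers, not to single sample titles, and 0 columns were left unmapped.

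Genes with a mean of at least 1 CPM over the 6 libraries were tested with limma 3.58.1 (R 4.3.3; lmFit, eBayes with a mean trend) on log2(CPM + 1) with the culture as a block, 2-sided, and p-values were adjusted over the tested genes (Benjamini-Hochberg) and called below 0.05. The block comes from the culture code in the headers. Deviations from the group means correlated between the inputs of the same culture with r = 0.32 to 0.51 and between different cultures with r = -0.34 to 0.05. Replicates of an input were further apart than sampling would give (mean chi-square over genes 6.29 to 27.0), so each was counted as 1 replicate. Alternatives were edgeR 4.0.16, DESeq2 1.42.0, TMM and DESeq2 scaling, other pseudocounts and filters, the fit with no block, eBayes without trend and each culture left out. The model fits were tested on simulated data.

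The members and gene lists were chosen with earlier results of these data known, and the classes by GC-richest stretch after the rises were seen. Symbols were matched to GENCODE M21 (97.2% of tested genes), which gave gene types, transcript lengths and sequences. Genes were named by rule: the 10 largest rises and falls with a mean of at least 10 CPM and 1 direction in all cultures, the 2 highest members and largest called changes of each list, and common NSC and reference genes. Igfbp3, Rac1, Prkaca, Ppp2ca, Gnas, Spry2, Eid1, Huwe1 and further called list members were added after their values were seen. Values of some list members are not reported here. Authors' means or comparisons were not used. The paper counts the 3 cultures as biological replicates, 1 male and 2 female, so by its methods 2 of them share a line. Beyond this and their codes, nothing says that the cultures were independent. With the culture as a block, the p-values measure how far the change with input varied between these cultures. Differences in level between the cultures are taken up by the block. Intervals from PCR reads would cover counting error only.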

Additional observations from a re-analysis of the deposited data

How the results depend on the processing

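Counts of called genes depended on the model more than the fold changes did. In vehicle, the rises numbered 379 and the falls 258. DESeq2 called 653 and 723, limma without a mean trend 159 and 14, and leaving out 1 culture gave 242 to 409 rises and 90 to 426 falls. The falls numbered 144 with no filter and 150 with edgeR. Without the block on culture (the pairing), 320 rises and 120 falls were called, 317 and 115 of them shared with the paired fit. Under H2O2, where 418 rose and 271 fell, the fit with no pairing called 259 and 27, DESeq2 748 and 819, limma without trend 217 and 22, edgeR 145 falls and no filter 120 falls, and leaving out 1 culture gave 239 to 354 rises and 70 to 183 falls. The cause of these differences was not tested. Of 92 named genes that were called, 57 lost the call without trend, 32 with no pairing, 30 without F5, 24 without M9, 23 with no filter, 9 without F8, 8 with edgeR and 0 with DESeq2, and none changed sign in any of these.

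The median of the respiratory chain list, 0.11, was 0.127 with TMM scaling, 0.126 with DESeq2 scaling, 0.129 with edgeR and 0.128 with DESeq2, and 0.0982 to 0.115 with a culture left out. That of giant cytoskeletal and membrane proteins, -0.49, was -0.53 with a pseudocount of 0.25 and -0.54 to -0.47 with a culture left out. Of 473 alternative values over all lists, 410 moved by less than the spread between cultures. The share of genes with a stretch of 86% or more G and C that rose more than 2-fold, 21.3%, was 9.85% without trend. With the same cut it was 8.5% for stretches of 50 bases and 6.15% for 200 bases. These sets are unlike, with 3060 genes for 50 bases, 853 for 100 and 130 for 200. The highest share was 14.9% at 90% or more for 50 bases and 33.0% at 82% to 84% for 200. At a minimum of 1 CPM, 44 more genes were detected at 100 pg than at 1 ng on average. The sign turned at 5 reads (-181) and at 1 CPM after thinning (-13). The interquartile range of the ratio within a culture, 0.508, was 0.544 with a pseudocount of 0.25 and 0.386 with 5. The stretches of 50 and 200 bases were chosen after seeing the data.

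Limits: with 3 cultures per input, input cannot be told apart from any separate handling of the 2 sets of libraries. A CPM level is a share of its library, so no absolute loss or gain of RNA can be read from it. Below 1 CPM at 1 ng, absence at 100 pg means that no read was seen at this depth.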
